A study of Mus musculus with 3 samples.

Results

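Prostaglandins and leukotrienes are signalling lipids made from arachidonic acid, and the 10 genes described here encode enzymes that make them and receptors that sense one of them, prostaglandin E2. The genes were chosen by name: the cyclooxygenases Ptgs1 and Ptgs2, the terminal synthases Ptges and Ptgis, the prostaglandin E2 receptors Ptger2, Ptger3 and Ptger4, and the leukotriene genes Alox5, Alox5ap and Ltc4s. All 10 were found among the 32285 genes of each library. Their levels were read in 3 classes of cells from the mouse aortic adventitia, the outer layer of the aorta, which holds fibroblasts, macrophages, nerves and small vessels.

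Both pathways start when a phospholipase frees arachidonic acid from membranes. The cyclooxygenases (COX-1, encoded by Ptgs1 and made by many cells at rest, and COX-2, encoded by Ptgs2, a gene switched on within minutes to hours by growth factors, cytokines and stress) turn it into prostaglandin H2. Ptges then makes prostaglandin E2 and Ptgis makes prostacyclin, which relaxes vessels. Ptger2 and Ptger4 encode the receptors EP2 and EP4, which raise cyclic AMP, and Ptger3 encodes EP3, which mostly lowers it. In the other branch 5-lipoxygenase (Alox5), with its activating protein FLAP (Alox5ap), makes leukotriene A4, and Ltc4s joins it to glutathione to give leukotriene C4, the first of the cysteinyl leukotrienes.

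The series held 1 single-cell RNA library for each of 3 groups of mice: given saline (Vehicle), given angiotensin II, which constricts vessels and is used to model hypertension (AngII), or given it while also running on a wheel at will (AngII_VWR). The labels give 3 mice for each group, 9 in all, and do not say how their cells were combined. Strain, sex, age, dose and duration are not given in the sources used here, and the third library is titled AngIIEX, which was taken as the running group because the design text lists no other. With 1 library per group there was no replicate, so no test between groups was possible. All intervals below cover counting error only, and a difference between libraries cannot be told apart from a difference between mice, dissections or preparations.

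Barcodes numbered 15093 in Vehicle, 10515 in AngII and 19633 in AngII_VWR, and 12324, 9115 and 16125 cells were kept. Median depth was 9419.5, 13129 and 4467 unique molecular identifiers (UMIs, each counted once per captured RNA molecule) per cell. Pairs of libraries shared between 44 and 80 barcodes, at most 0.647% of the smaller library. A cell was put in the fibroblast class when Col1a1, Col1a2, Dcn and Lum made up at least 1% of its UMIs, in the macrophage class when C1qa, C1qb and C1qc made up at least 0.3%, and otherwise in the rest; the 63, 13 and 72 cells that passed both cuts were left out. This gave 6495, 6069 and 10926 cells of the fibroblast class (52.7, 66.6 and 67.8% of the cells kept in Vehicle, AngII and AngII_VWR) and 2547, 2004 and 3211 of the macrophage class. All 9 fibroblast markers and all 9 macrophage markers were above 5 CPM (UMIs per 1000000 UMIs of the class) in their own class in every library. Both lists include the genes of the class rule, and this count does not separate the classes. In the macrophage class 9, 8 and 9 of the fibroblast markers also reached 5 CPM, and in the fibroblast class 6, 6 and 8 of the macrophage markers did. These classes are ranges of a score and not types: 1184, 279 and 876 cells lay within 20% of the fibroblast cut, and 82, 23 and 174 within 20% of the macrophage cut. The rest was a mixture whose make-up differed between libraries. Smooth muscle markers summed to 16616 CPM of it in Vehicle against 1353 and 1520 in the other two, and a cluster of neutrophil-like cells made up 14.8% of it in AngII_VWR.

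The promoters of Ptgs2, Ptger4 and Ptgs1 are printed as examples of members that differed between libraries. Ltc4s also differed, and its promoter is not printed. Each line gives the 150 bases before the annotated start, 5′ to 3′ along the gene's strand, from the RefSeq promoter table (GRCm38.p6). For Ptgs2 the first 30 bases after the start are given too, because the only cyclic AMP response core and E-box of its window lie there. Capitals mark matches, on either strand, to the motifs searched.

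Ptgs2, before the start, chr1:150099881-150100030, plus strand: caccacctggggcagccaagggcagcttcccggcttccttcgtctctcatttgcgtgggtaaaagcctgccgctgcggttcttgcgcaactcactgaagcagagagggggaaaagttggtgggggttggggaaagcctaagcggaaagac
Ptgs2, after the start, chr1:150100031-150100060, plus strand: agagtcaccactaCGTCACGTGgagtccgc
Ptger4, before the start, chr15:5244188-5244337, minus strand: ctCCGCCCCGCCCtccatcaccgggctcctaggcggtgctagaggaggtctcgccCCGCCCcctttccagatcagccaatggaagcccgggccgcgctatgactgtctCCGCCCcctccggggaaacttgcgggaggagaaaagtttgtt
Ptgs1, before the start, chr2:36230276-36230425, plus strand: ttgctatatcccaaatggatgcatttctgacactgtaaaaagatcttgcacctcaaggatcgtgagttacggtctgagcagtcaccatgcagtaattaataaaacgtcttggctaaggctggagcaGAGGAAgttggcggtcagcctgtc

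The search covered 7 motifs over the 300 bases from 250 before to 50 after the start, in 32851 promoters, 8 of them of members. Ptgs2 carried the cyclic AMP response core TGACG, read here on the other strand, with the E-box CACGTG overlapping it, at +14 and +17. TGACG was present in 20.8% of all promoters and CACGTG in 7.15%. A GC box, GGGCGG, lay at -170 and an ETS core, GAGGAA, at -247 of Ptgs2; these 2 motifs were in 35.7 and 28.3% of all promoters. Ptger4 had 4 GC boxes, 2 of them overlapping, and no match to the other motifs. Ptgs1 had 1 ETS core, 24 bases before its start. Ltc4s, not printed, had 1 ETS core, at +17, and no other match. TATAAA (13.6% of promoters), TGANTCA (the AP-1 site, 7.81%) and the NF-kB consensus (4.51%) were in none of the 8 members' windows. A match is only a run of letters, and an absent match says nothing of the factor.

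A gene was counted as measured in a comparison when it reached 5 CPM in either library with at least 10 UMIs over both, and as apart when the CPM differed by at least 1.5-fold. Of 5 members measured in the fibroblast class, 2 were apart between AngII and Vehicle, with Ptgs2 higher and Ptgs1 lower. Over all 10451 genes measured there, 12.7% were apart, 7.35% higher and 5.31% lower in AngII. In the macrophage class 4 of 8 measured members were apart (Ptgs2 and Ptger4 higher, Ltc4s and Ptgis lower in AngII), beside 14.6% of 9826 genes, 7.39% higher and 7.23% lower. Between AngII_VWR and AngII, 4 of 7 members were apart in the fibroblast class: Ptgs1, Alox5ap and Ltc4s were higher and Ptgs2 lower with running. The background was 13.7% of 10594 genes, 8.22% higher and 5.45% lower. For the macrophage class the same comparison gave 6 of 9 (Ptgs1, Ptgis, Ptger2 and Ltc4s higher, Ptgs2 and Ptger4 lower) beside 21.4% of 10201 genes, 16.1% higher and 5.33% lower. The median log2 ratio of the measured members was -0.13, -0.39, 0.20 and 0.23 in these 4 comparisons, in the order given, and that of all measured genes was -0.07, -0.01, 0.10 and 0.18. Both comparisons share the AngII library, so a member high in that library alone is higher in one and lower in the other by construction.

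**Figure D1:**
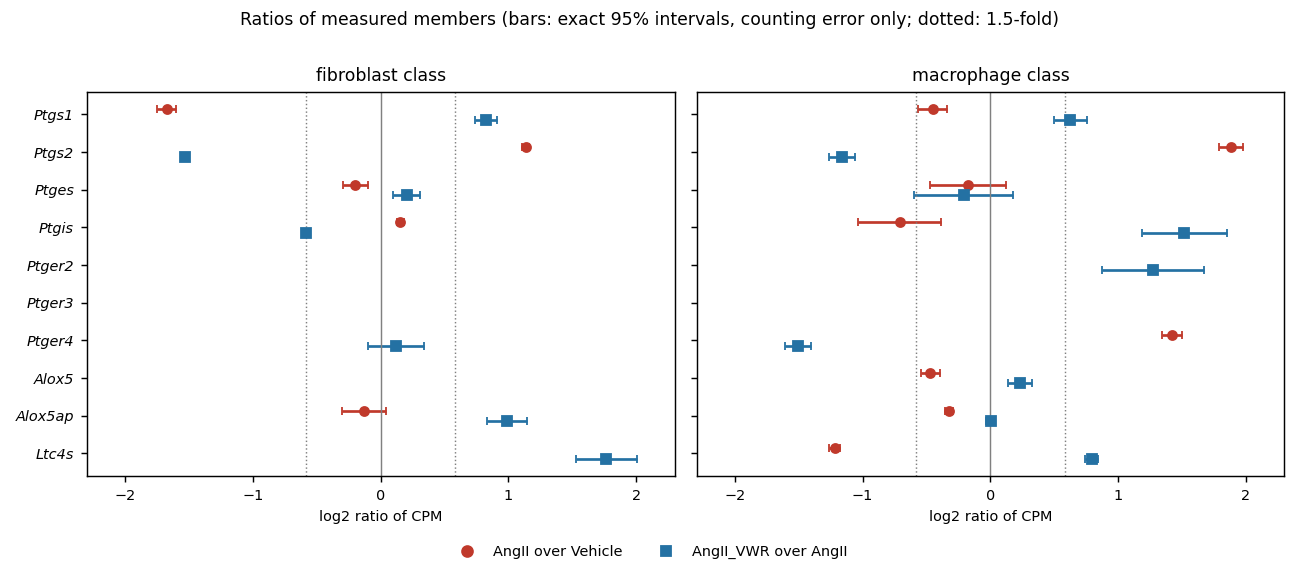
Ratio of CPM on a log2 axis for each measured member in the fibroblast class (left) and the macrophage class (right), AngII over Vehicle as red circles and AngII_VWR over AngII as blue squares; bars are exact 95% intervals for counting error and the dotted lines mark 1.5-fold. Ptgs2 lies past the right line for AngII over Vehicle and past the left line for AngII_VWR over AngII in both classes, as does Ptger4 in macrophages.

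Ptgs2 (chr1:150100031-150108227, GRCm38, plus strand; like all 10 members a protein-coding gene) was highest in the AngII library in both the fibroblast and the macrophage class. Its level in the fibroblast class was 223 CPM in Vehicle (95% Poisson interval 219.7 to 227), 489.7 in AngII (485 to 495) and 169.8 in AngII_VWR (166 to 173). That is 2.19-fold higher in AngII than in Vehicle (2.16 to 2.24) and 2.88-fold lower in AngII_VWR than in AngII (2.82 to 2.95). The macrophage class had 34.4 CPM in Vehicle, 127 in AngII and 56.7 in AngII_VWR, a level 3.68-fold higher in AngII (3.45 to 3.94) and then 2.24-fold lower (2.09 to 2.40). The order differed in the rest, where AngII_VWR was highest: 104, 126 and 191 CPM. Neutrophil-like cells of the AngII_VWR library, which fell in the rest, held Ptgs2 at 813 CPM. Their part in the order of the rest was not tested.

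The same order was seen in the share of cells with a Ptgs2 UMI after each cell was thinned to 2000 UMIs, which left out 981, 476 and 2140 shallower cells of the fibroblast class and 178, 34 and 456 macrophages. It was 18.0% of fibroblast-class cells in Vehicle, 31.4% in AngII and 16.05% in AngII_VWR, and 31.5, 48.9 and 24.2% without thinning. In the macrophage class the thinned share was 4.18, 14.2 and 7.95%, and 12.5, 36.0 and 14.3% without thinning. AngII was highest on each of these shares. Median depths before thinning were 9525, 12984 and 4587.5 UMIs in the fibroblast class and 12869, 15176.5 and 4872 in the macrophage class. Lymphatic endothelial-like cells, the cluster with the lowest mean level, had 1, 4 and 5 Ptgs2 UMIs (0.934, 7.50 and 11.3 CPM). Fibroblast-class cells with at least 5 Ptgs2 UMIs after thinning were 1.41, 6.28 and 1.07% of the class. The enzymes downstream were read in cells with and without it. Ptges was seen in 5.95% of Vehicle fibroblast-class cells with Ptgs2 (4.56 to 7.61) and 4.02% of those without (3.47 to 4.64), in 3.70 and 3.78% in AngII and in 3.97 and 3.69% in AngII_VWR. Ptgis was seen in 42.2 and 36.1%, 42.4 and 38.6%, and 30.7 and 30.9%.

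Clustering all cells gave 33 clusters, each named by its number and leading genes. Levels of a cluster are sums over all its cells, also those outside the class it mostly falls in. In cluster 2, for example, 574 of 3394 cells were in the rest. Ptgs2 differed between libraries within some fibroblast clusters and hardly in others. The highest level among fibroblast clusters was in cluster 10, led by Thbs4, Scg2 and Ndnf, at 786 CPM in AngII and 697 in AngII_VWR. Since 1384 of its 1457 cells came from AngII and 18 from Vehicle, it may be that library and not a type. Cluster 9, led by Vegfd, had 165 CPM in Vehicle, 707 in AngII and 254 in AngII_VWR, and cluster 5, led by Smoc1, had 78.1, 307 and 110.4. By contrast cluster 2, led by Cd55 and Dact2, had 275, 317 and 325 CPM, and cluster 8, led by Cilp, 140.2, 141 and 119. Cluster 1, led by Pde4c and made up mostly of AngII_VWR cells (3125 of 3416), went the other way, with 35.2 CPM in AngII and 132 in AngII_VWR. Without cluster 10 the log2 ratio of the class was 0.73 for AngII over Vehicle (1.13 with it) and -1.14 for AngII_VWR over AngII (-1.53 with it). With clusters found in both libraries weighted equally, the latter was -0.77.

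Macrophage clusters differed in level, and the clusters that filled the class differed between libraries. Cluster 6, led by Cd209f and Fcna, made up 50.6% of the macrophage class in Vehicle, 11.7% in AngII and 23.8% in AngII_VWR, while cluster 11, led by Il1b, Stap1 and Ccl12, made up 40.0% in AngII and 9.93% in AngII_VWR. Ptgs2 stood at 186, 212 and 155 CPM in cluster 11 and at 13.5, 31.7 and 14.1 in cluster 6. Cluster 4, led by Ccl3 and Tnf, had 43.0, 58.6 and 49.6. Weighting the shared clusters equally took the log2 ratio of AngII over Vehicle from 1.88 to 0.33 and that of AngII_VWR over AngII from -1.16 to -0.40, both within 1.5-fold. Monocyte markers summed to 18.0, 180.5 and 117 CPM of the class in Vehicle, AngII and AngII_VWR, and their part in the Ptgs2 difference was not tested.

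Ptgs2 is an early response gene, which tissue digestion can raise, so 26 early response and heat shock genes were read beside it. Their summed level was 30713, 31380 and 23677 CPM of the fibroblast class and 36784, 22138 and 22957 of the macrophage class. Between AngII and Vehicle 6 of the 26 were apart in the fibroblast class, 3 higher and 3 lower, beside 12.7% of all genes (median log2 ratio 0.04). In the macrophage class, where Ptgs2 was higher, 18 were apart, 3 higher and 15 lower, beside 14.6% of all genes (-0.72). Between AngII_VWR and AngII 8 were apart in the fibroblast class, all lower as Ptgs2 was, beside 13.7% of all genes (-0.33). The macrophage class had 4 apart, 1 higher and 3 lower, beside 21.4% (-0.03). The part of the digestion in the Ptgs2 differences was not tested.

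Ptgs1 (chr2:36230426-36252272, plus strand) was lowest in AngII in all 3 classes. The fibroblast class had 76.1 CPM in Vehicle (74.1 to 78.2), 23.9 in AngII (22.8 to 24.9) and 42.2 in AngII_VWR (40.5 to 43.9), which is 3.19-fold lower in AngII than in Vehicle (3.03 to 3.36) and 1.77-fold higher in AngII_VWR than in AngII (1.66 to 1.88). Macrophages had 44.8, 32.7 and 50.5 CPM, and the rest 49.0, 24.6 and 62.3. Among fibroblast clusters this message was concentrated in cluster 2, led by Cd55 and Dact2. It stood there at 174 CPM in Vehicle, 117 in AngII and 167 in AngII_VWR. Most other fibroblast clusters were under 50 CPM in every library; cluster 15, led by the interferon genes Ifit3 and Ifit1, had 113, 24.1 and 15.2. Cluster 2 made up 20.1% of the fibroblast class in Vehicle, 8.32% in AngII and 9.24% in AngII_VWR. With the shared clusters weighted equally the log2 ratio was -0.79 for AngII over Vehicle (-1.67 by cells) and 0.46 for AngII_VWR over AngII (0.82 by cells), the latter within 1.5-fold. Doubling the class cuts, which moves cells of low collagen out, gave -0.59 and 0.54, and leaving out cluster 10, led by Thbs4, gave -1.24 and 0.39. Both settings put AngII_VWR over AngII within 1.5-fold. Lymphatic endothelial-like cells of Vehicle held 104 CPM (85.3 to 125), against 1 UMI each in the other libraries (1.88 and 2.27 CPM).

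**Figure D2:**
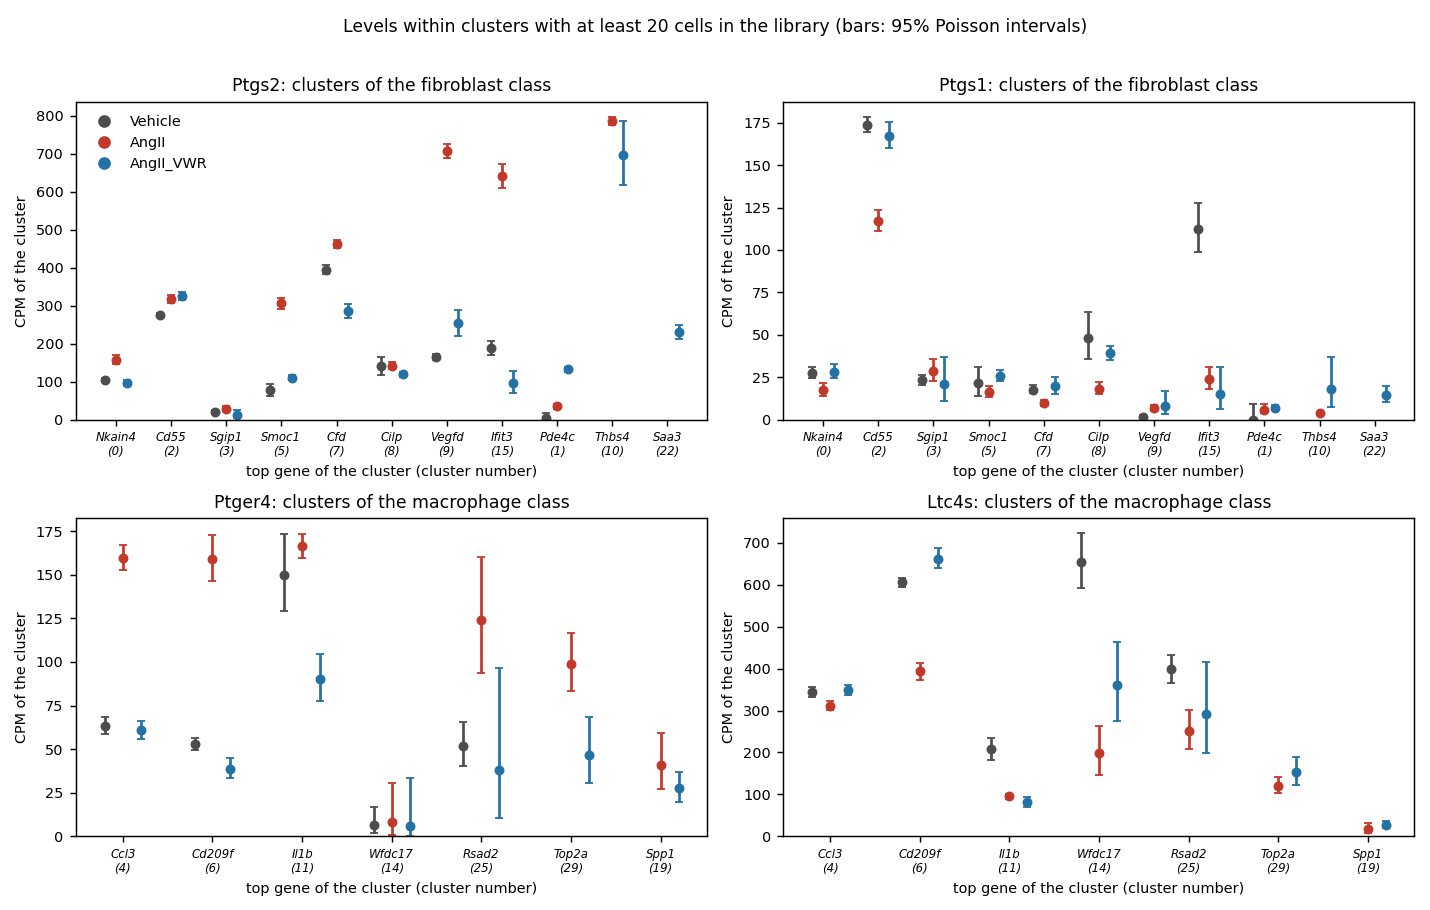
CPM within clusters that have at least 20 cells in a library, for Ptgs2 and Ptgs1 in clusters of the fibroblast class (top) and Ptger4 and Ltc4s in clusters of the macrophage class (bottom); grey is Vehicle, red AngII and blue AngII_VWR, and bars are 95% Poisson intervals. Ptgs2 is high in AngII in the Vegfd cluster (707 CPM) and near level in the Cd55 cluster (275 to 325 CPM), Ptgs1 stands out in the Cd55 cluster, and Ptger4 is highest in AngII in the Ccl3 and Cd209f clusters.

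In the fibroblast class neither terminal synthase was 1.5-fold apart in either comparison. Ptges (chr2:30889471-30929863, minus strand), the inducible prostaglandin E synthase, was a fibroblast-class message at 22.8, 19.8 and 22.9 CPM in Vehicle, AngII and AngII_VWR, and stood at 6.29, 5.58 and 4.84 CPM in macrophages. Its ratio was 0.87 for AngII over Vehicle (0.81 to 0.93) and 1.15 for AngII_VWR over AngII (1.07 to 1.24) in the fibroblast class, both within 1.5-fold. The highest level of any cluster was 59.4 CPM, in cluster 22, led by the acute phase gene Saa3 and seen in AngII_VWR alone with at least 20 cells.

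Prostacyclin synthase, Ptgis (chr2:167191805-167240604, minus strand), was found across the fibroblast class at 277 CPM in Vehicle, 308 in AngII and 206 in AngII_VWR, in 37.2, 39.8 and 30.9% of cells thinned to 2000 UMIs. AngII_VWR was 1.497-fold lower than AngII (1.47 to 1.53), just inside the 1.5-fold line, and 7 of the 15 alternative settings put it past the line. Each fibroblast-like cluster held it, at 181 to 334 CPM averaged over libraries. Smooth muscle-like cells, cluster 12, had the most, 1138 CPM in Vehicle and 992 in AngII_VWR, and numbered under 20 in AngII. In the rest Ptgis stood at 523, 67.0 and 121 CPM, and smooth muscle markers at 16616, 1353 and 1520. Macrophages had 6.63, 4.05 and 11.6 CPM, called 1.64-fold lower in AngII than in Vehicle (1.31 to 2.05) and 2.86-fold higher in AngII_VWR than in AngII (2.28 to 3.60). Fibroblast markers summed to 913, 910.4 and 2352 CPM of the macrophage class in the same libraries, and the median macrophage had 0.0393, 0.0445 and 0.122% of its UMIs from Col1a1, Col1a2, Dcn and Lum. Smooth muscle markers summed to 142.6, 26.0 and 57.9 CPM of that class. The part of RNA from other cells in these Ptgis calls was not tested. Once 5% of the profile of each library's other cells was taken off, Ptgis in macrophages was under the 5 CPM floor.

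**Figure D3:**
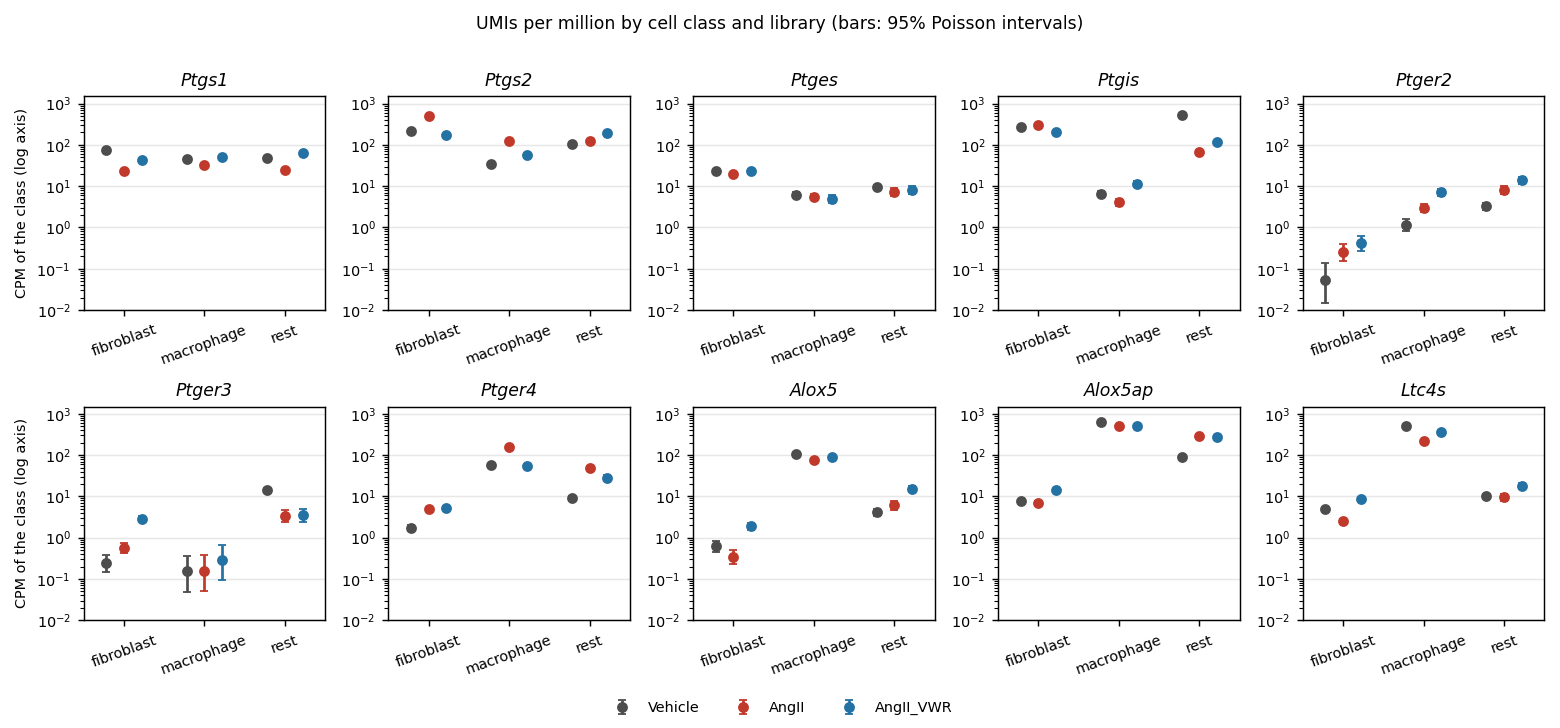
CPM of each member on a log axis in the fibroblast class, the macrophage class and the rest, 1 point per library (grey Vehicle, red AngII, blue AngII_VWR) with 95% Poisson intervals. Alox5, Alox5ap and Ltc4s stand highest in macrophages, Ptges in the fibroblast class, and Ptgis is high in the fibroblast class and in the rest of Vehicle.

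Of the prostaglandin E2 receptors, Ptger4 (chr15:5206661-5244187, minus strand) was the macrophage-class message. It stood at 58.4 CPM in Vehicle (55.8 to 61.1), 156 in AngII (152 to 161) and 55.0 in AngII_VWR (51.6 to 58.6). AngII was 2.68-fold above Vehicle (2.54 to 2.82), and AngII_VWR was 2.84-fold below AngII (2.65 to 3.05). In thinned macrophages its share was 10.1, 21.7 and 9.73%, and 33.0, 66.8 and 19.8% without thinning; thinned fibroblast-class cells had 0.181, 1.14 and 1.09%. Inside clusters 4 and 6 AngII was also the highest library: cluster 4 had 63.5, 160 and 60.9 CPM, and cluster 6 had 52.8, 159 and 38.7. Cluster 11 held 149.9, 166 and 90.3 CPM, with Vehicle and AngII close to each other. The log2 ratio of AngII over Vehicle, 1.42 by cells, was 0.86 when shared clusters counted equally, still past 1.5-fold. The fibroblast class had 1.73, 4.93 and 5.36 CPM. Its AngII value lay just under the 5 CPM floor, as did Ltc4s there in Vehicle (4.89), so neither entered the AngII over Vehicle count of that class. Other cells with Ptger4 were T-like (58.0, 68.5 and 81.5 CPM in cluster 17) and, in AngII, endothelial-like at 148.

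Ptger2 (chr14:44988195-45003820, plus strand) was low throughout. The fibroblast class held 4, 21 and 24 UMIs in all, the macrophage class 1.16, 2.97 and 7.15 CPM and the rest 3.24, 8.25 and 13.8. In macrophages AngII_VWR was 2.41-fold above AngII (1.83 to 3.19), on 124 and 93 UMIs. Its highest levels were in neutrophil-like cells of AngII_VWR, at 47.3 CPM (30.3 to 70.3), and in cluster 13, an unnamed cluster led by Lyz1, Dcstamp and Ear2, at 29.7, 13.3 and 31.2. Ptger3 (chr3:157566892-157645888, plus strand), the receptor that lowers cyclic AMP, was near 0 in macrophages, with 5 UMIs in each library. The rest had 14.3 CPM in Vehicle, 3.40 in AngII and 3.49 in AngII_VWR, 4.20-fold lower in AngII than in Vehicle (2.97 to 6.11). Smooth muscle-like cells, which numbered 581 in Vehicle and under 20 in AngII, held 33.7 CPM in Vehicle. In AngII_VWR cluster 22, the Saa3 cluster, held 140 Ptger3 UMIs, or 49.8 CPM (41.9 to 58.8), where the whole fibroblast class held 169. Cells like group 2 innate lymphoid cells (ILC2-like) had 11.1, 8.80 and 53.8 CPM in Vehicle, AngII and AngII_VWR, on only 5, 3 and 11 UMIs.

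The leukotriene genes were macrophage-class messages. Alox5 (chr6:116410077-116461178, minus strand) stood at 107 CPM of that class in Vehicle, 77.6 in AngII and 91.0 in AngII_VWR, within 1.5-fold in both comparisons (1.38-fold lower, 1.31 to 1.46, then 1.17-fold higher, 1.10 to 1.25). Fibroblast-class cells held 0.631, 0.341 and 1.90 CPM. Outside macrophages it was found in neutrophil-like cells of AngII_VWR at 154 CPM, in mast-like cells at 108 on 5 UMIs (35.1 to 252), and in ILC2-like cells, group 2 innate lymphoid cells, at 102, 44.0 and 44.0.

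Alox5ap differed least of these genes between AngII_VWR and AngII. It lies at chr5:149264767-149288153, plus strand. Macrophages had 649.7 CPM in Vehicle, 519 in AngII and 519.8 in AngII_VWR, and the ratio of AngII_VWR to AngII was 1.00 (0.98 to 1.03). Thinned macrophages had a UMI of it in 69.2, 61.9 and 60.1% of cells, against 1.87, 1.63 and 3.01% of the fibroblast class; without thinning these were 93.6, 96.9 and 78.5%, and 6.96, 8.25 and 6.88%. Dendritic-like cells (690.3, 718 and 559 CPM), neutrophil-like cells (754) and cluster 13 (854, 723 and 604) had it at similar levels to macrophages.

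Ltc4s (chr11:50236461-50238616, minus strand), the enzyme that commits leukotriene A4 to the cysteinyl branch, was the leukotriene gene that differed most in macrophages. It stood at 498 CPM in Vehicle (490.4 to 506), 214 in AngII (209 to 219) and 370.0 in AngII_VWR (361 to 379). AngII was 2.33-fold below Vehicle (2.26 to 2.40), and AngII_VWR 1.73-fold above AngII (1.67 to 1.79). The thinned share of macrophages with it was 55.3, 30.3 and 42.9%, and 87.4, 69.1 and 59.2% without thinning. Its level differed between clusters too, and Ltc4s is itself among the leading genes that mark cluster 6. Cluster 6 had 606, 394 and 663 CPM, cluster 11 had 207.5, 95.2 and 81.5, and cluster 4 had 343, 312 and 350. Cluster 6 was the largest part of the Vehicle macrophages and cluster 11 of the AngII ones. With shared clusters weighted equally the log2 ratio was -0.81 for AngII over Vehicle (-1.22 by cells) and 0.49 for AngII_VWR over AngII (0.79 by cells), the latter within 1.5-fold.

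Among macrophages with Ptgs2, Ltc4s was seen in 46.5% (36.4 to 56.8) in Vehicle, 22.5% (17.7 to 27.9) in AngII and 31.1% (24.99 to 37.6) in AngII_VWR. Among those without Ptgs2 it was seen in 55.7% (53.6 to 57.7), 31.6% (29.4 to 33.9) and 43.9% (41.9 to 45.9). Split by Alox5 the order was the opposite. Ltc4s was seen in 60.3% (55.6 to 64.8) of Vehicle macrophages with Alox5 and 54.1% (51.8 to 56.4) of those without, intervals that overlap. In AngII the shares were 37.9% (32.2 to 43.8) and 29.1% (26.9 to 31.3). In AngII_VWR they were 50.9% (46.1 to 55.8) and 41.4% (39.4 to 43.4). Cluster 6 held more Ltc4s and Alox5 than cluster 11 in each library, and less Ptgs2. The part of the cluster mix in these splits was not tested. All these shares describe cells of 1 library each, over thinned cells.

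Alox5ap and Ltc4s were also called in the fibroblast class between AngII_VWR and AngII, at low levels. Alox5ap had 7.72, 7.05 and 13.97 CPM there (1.98-fold, 1.78 to 2.21) and Ltc4s 4.89, 2.53 and 8.59 (3.39-fold, 2.88 to 4.01). Macrophage markers summed to 155, 121 and 354 CPM of the fibroblast class in the same libraries, with 6, 6 and 8 of the 9 above 5 CPM. The median fibroblast-class cell had 0, 0.00493 and 0.0165% of its UMIs from C1qa, C1qb and C1qc. When 5% of the profile of each library's other cells was subtracted, neither gene reached the floor in the fibroblast class.

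**Figure D4:**
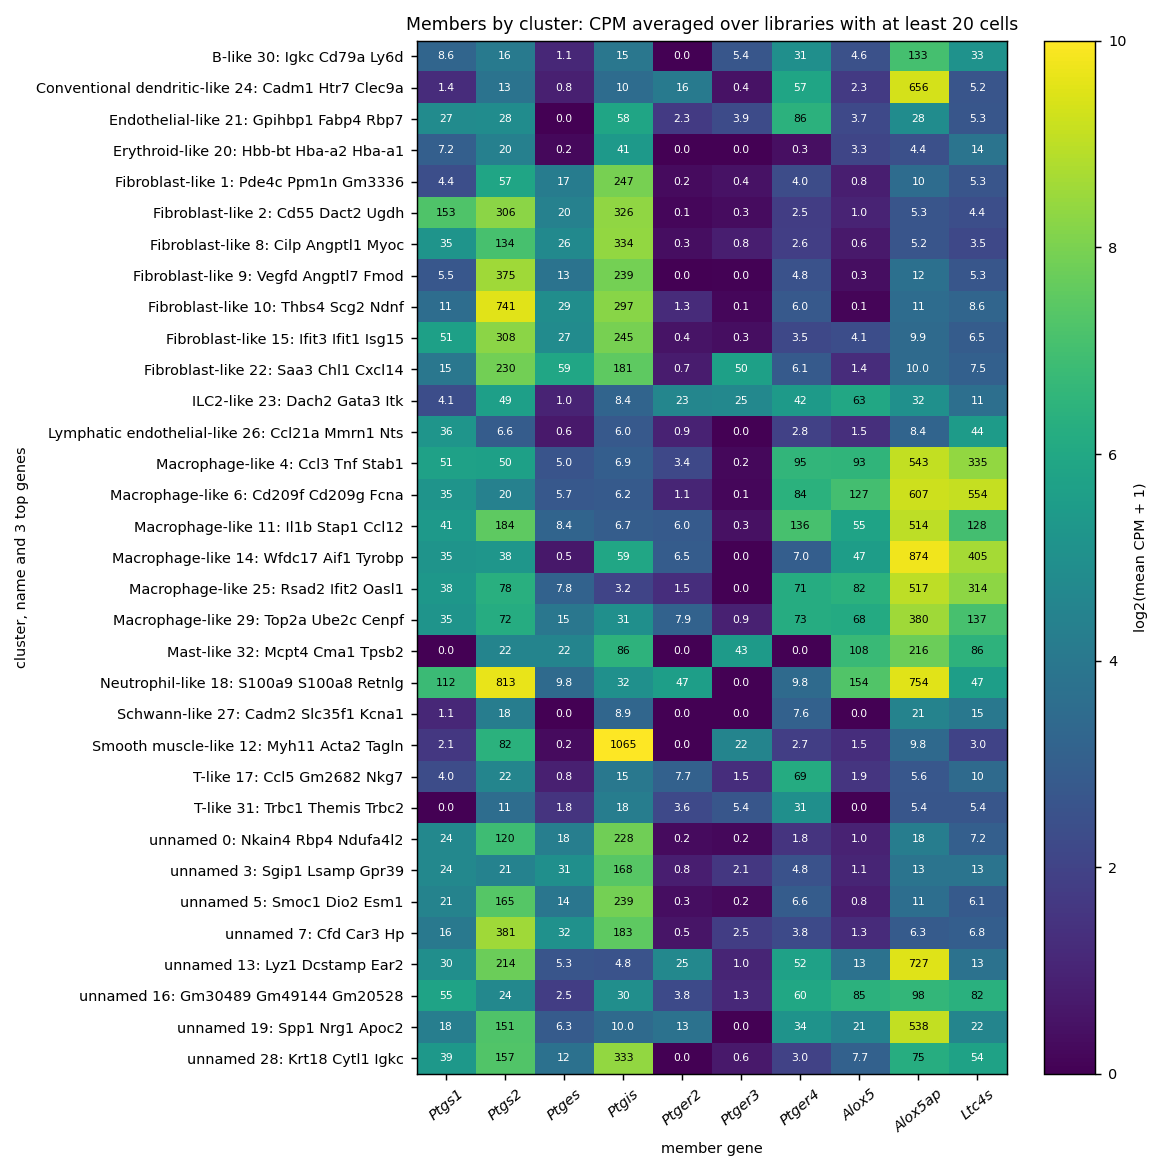
Level of each member (columns) in each cluster (rows, with name and 3 leading genes), as CPM averaged over libraries with at least 20 cells of the cluster; colour is log2(CPM + 1). Alox5ap, Alox5 and Ltc4s are bright together in the macrophage-like rows, Alox5ap without Ltc4s in dendritic-like and neutrophil-like rows, Ptgs2 in the Thbs4 fibroblast and neutrophil-like rows, and Ptgis in fibroblast and smooth muscle-like rows.

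Beyond the 10 members, 56 further genes of the pathways were read, from phospholipases to leukotriene receptors. Between AngII and Vehicle in the fibroblast class 5 of 24 measured genes were apart, 2 higher and 3 lower, beside 12.7% of all genes (median log2 ratio -0.15, and -0.07 over all genes). Ggt5, which trims leukotriene C4 to D4, was higher, at 13.2 CPM in Vehicle and 28.98 in AngII, and lower again with running, at 15.9. Ptgir, the prostacyclin receptor, was the other, at 3.86 and 6.13 CPM, and is named here after its value was seen. By cluster it went both ways between Vehicle and AngII, from 4.20 to 9.91 CPM in cluster 9 and from 28.7 to 12.6 in cluster 5. Lower in AngII were Dpep1, which converts leukotriene D4 to E4 (696 and 304 CPM, and 423 with running), Hpgd, which breaks prostaglandins down (21.5 and 3.64), and Akr1c18 (16.5 and 1.18). Between AngII_VWR and AngII 3 of 22 were apart, 2 higher and 1 lower, beside 13.7% of all genes (median 0.08, and 0.10 over all genes). Ptgfrn was at 100.3 CPM in AngII and 151 in AngII_VWR, and the transporter Abcc4 at 11.8 and 18.2.

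The macrophage class led for 9 of these genes among those that reached 50 CPM. Hpgds, which makes prostaglandin D2, stood at 174.5, 133 and 102 CPM of the macrophage class and at most 8.64 in the others. Tbxas1, thromboxane synthase, had 357.5, 283 and 243 CPM there, and Hpgd 361, 205 and 154. Of the 3 classes, macrophages were also highest for Prxl2b, Abcc1, Akr1b3, Pla2g15, Cotl1 (a partner of 5-lipoxygenase) and the cysteinyl leukotriene receptor gene Cysltr1. Cysltr1 had 51.1, 68.5 and 51.5 CPM in the macrophage class. By cluster it was higher in cluster 13 (91.0, 107.7 and 104.0 CPM), with 411 of its 495 cells in the rest. Dendritic-like cells, also of the rest, had 83.0, 79.8 and 91.8 CPM. The fibroblast class led for Pla2g4a, the cytosolic phospholipase that frees arachidonic acid (104.8, 99.3 and 109 CPM), for Dpep1 and for Ptgfrn. Ltb4r1, the high-affinity leukotriene B4 receptor, led in the rest at 18.8, 63.2 and 52.3 CPM and stood at 270.1, 273 and 229.9 in ILC2-like cells. Ptges3 also led in the rest.

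Of 26 such genes measured in macrophages between AngII and Vehicle, 7 were apart, 4 higher and 3 lower, beside 14.6% of all genes (median -0.03, and -0.01 over all genes). Cyp4f18, which inactivates leukotriene B4, was higher (17.9 and 40.0 CPM), with Dpep2 (5.53 and 14.4) and Abcc4 (10.5 and 16.1). Ltb4r1 was the other, at 0.856 and 5.39, also named after its value was seen. By cluster Ltb4r1 had 0 and 0.596 CPM in cluster 4, 0.311 and 0.273 in cluster 6, and 0 and 7.60 in cluster 11. Cluster 13, with 80 of its 495 cells in the macrophage class, had 160 and 145. Pla2g2d, a secreted phospholipase, was lower (63.2 and 19.1), with Hpgd (361 and 205) and Dpep1 (12.8 and 5.36). Dpep1 was far higher in the fibroblast class, where it was also lower in AngII, and the source of its UMIs in macrophages was not tested. Between AngII_VWR and AngII 4 of 27 were apart, 2 higher and 2 lower, beside 21.4% of all genes (median -0.08, and 0.18 over all genes). Pla2g2d was lower again at 10.4 CPM, as was Cyp4f18 at 25.4. Dpep1 and Ptgfrn, both led by the fibroblast class, were higher at 30.2 and 13.4 CPM of the macrophage class, beside the fibroblast marker sum of 2352 CPM in that library.

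Likeness of pattern was read over 65 sums, one for each cluster and library with at least 50 cells, among 10644 genes, as Pearson's r of log2(CPM + 1). The sums share libraries and depth, and r is a description with no test. The genes most like Ptgs2 were Ptgs2os (0.81), Phlda1 (0.79), Hk2 (0.77), Cxcl1 (0.77) and Mt1 (0.72). Ptgs2os is a noncoding gene on the other strand (chr1:150074873-150099963, GRCm38). It runs away from Ptgs2, with 67 bases between its start and the Ptgs2 start. Whether the authors' counting used strand is not given in the sources used here. Most like Ptgis were matrix genes, Bgn (0.96) and Col6a2 (0.95), with Sod3, Aebp1 and Scara3. Most like Alox5ap were the myeloid genes Lyz2, Pirb, Cd300c2, Clec12a and Spi1, each at 0.94.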

How the data were processed

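The authors deposited, per the file headers, 1 filtered matrix of UMI counts per gene and cell for each library, made with Cell Ranger 7.0.1 (Vehicle, AngII) or 7.1.0 (AngII_VWR); the build was mm10, per the submitters' processing notes, and libraries were 3′ 10x Genomics libraries, per the labels' protocols. Whether introns were counted is not given in the sources used here. These raw counts were used as deposited. Barcodes under 300 genes or 500 UMIs, or with over 10% of UMIs mitochondrial, were dropped. Scrublet (scanpy 1.11.5) marked 243, 146 and 0 cells by its own cut, so the highest scores were removed instead, at 0.8% per 1000 cells (1537, 784 and 2894 cells). Counts were summed by class and library and divided by total UMIs (CPM), with exact Poisson intervals, exact conditional intervals for ratios and Clopper-Pearson intervals for shares, all 95% and covering counting error only. The interval code was tested on simulated data.

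Clusters came from 2000 variable genes, 30 components, 15 neighbours and Leiden clustering (leidenalg 0.10.2, resolution 1.0) with no batch correction. They were named from markers by a scoring rule set after the data were seen, so names may differ from the study's. The members, the 56-gene list (2 older names were unmatched), the early response list and the markers (22 lists) were chosen with earlier results of these data known. Of the 56 genes those named are, per class and comparison, up to 3 highest and 3 lowest past 1.5-fold with at least 10 CPM, and any leading a class at 50 CPM or more. Gene positions are from GENCODE on GRCm38. The planned protein comparison was not made, and 13 planned and 2 later alternatives were run.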

Additional observations from a re-analysis of the deposited data

How the results depend on the processing

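Each count and ratio was recomputed under 13 alternatives planned at the outset and 2 chosen after seeing the data (equal weights for clusters shared by both libraries, and the fibroblast class without the Thbs4-led cluster). No member's called ratio changed direction, and 21 of the 29 member ratios kept their side of the 1.5-fold line under every alternative that gave a value. The count of members apart between AngII and Vehicle in the fibroblast class, 2 of 5 measured (12.7% of all genes), became 5 of 7 with doubled class cuts (13.4% of all genes), 4 of 7 with totals that leave out mitochondrial, ribosomal and haemoglobin genes (12.9%), 4 of 7 with cells thinned to 2000 UMIs (12.4%) and 7 of 10 with no filter on low counts (38.7%). That between AngII_VWR and AngII in the fibroblast class, 4 of 7 (13.7% of all genes), became 7 of 10 with no filter (40.9%) and 2 of 4 with a filter at 20 CPM and 50 UMIs (11.3%); fewer or more genes tested accounts for the filter changes by construction, and the cause of the others was not tested. Counts in the macrophage class stayed within 1.5 times. Calls that changed for single members were Ptgs2 in macrophages in both comparisons, Ltc4s and Ptgs1 in macrophages, Ptgs1, Ptgis and Alox5ap in the fibroblast class, all given beside the results except 3: Ptgs1 in macrophages gave a log2 ratio of 0.44 for AngII_VWR over AngII when centred on the median gene (0.63 uncentred) and -0.96 for AngII over Vehicle with equal cluster weights (-0.45 by cells), and Alox5ap in the fibroblast class gave -0.63 for AngII over Vehicle with doubled cuts (-0.13). Ptgis in macrophages, AngII over Vehicle, ranged from -2.14 with doublets kept to -0.62 (-0.71 as reported). Subtracting free RNA left no value for Alox5ap, Ltc4s and Ptger4 in the fibroblast class and Ptgis in macrophages, which were then under the floor. Cells added by the 20% mitochondrial limit had no doublet score. No paired analysis was possible because each group has 1 library. Depth limits Ptger2 and Ptger3, which had 4 to 169 UMIs in the fibroblast class of each library.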
